A study of Rattus norvegicus with 30 samples.

Results

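Antigen presentation genes were followed in the stomach, jejunum and colon of rats given the chemotherapy drug irinotecan. The group held 9 genes: Cd74, RT1-Da, RT1-Db1, RT1-Ba, RT1-Bb, Ciita, B2m, Tap1 and Tap2. All 9 were measured, by 17 of the 31042 probe sets tested, against 14217 genes with a probe set of 1 symbol on the array. Each gene was represented by its brightest probe set, taken as the highest mean over all 30 arrays, and its other probe sets served as a check.

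The 30 rats were female DA rats of 10 weeks, an inbred strain, and the labels name no altered gene or allele. The treated groups received 1 intraperitoneal dose of irinotecan (200 mg/kg) under light halothane anaesthetic and were killed 1, 6, 24 or 72 h later. The 0 h group received no irinotecan, with its anaesthesia or any sham injection a detail not given in the sources used here. Tissues were flushed and frozen as whole-wall sections. An array carried RNA of 1 tissue mixed from 3 rats, and with 2 arrays for each of the 15 combinations of tissue and time every comparison below set 2 arrays against 2. All 3 tissues at a given time were taken from the same 6 rats. Signals are log2 values on Affymetrix rat genome arrays, so a difference of 1 is a 2-fold change, and the level of one probe set cannot be set against that of another.

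Major histocompatibility complex (MHC) class II molecules show peptides from engulfed proteins to helper T cells and are made mainly by dendritic cells, macrophages and B cells, and also by the epithelium of the small intestine. RT1-Da and RT1-Db1 encode the alpha and beta chains of one rat class II molecule, RT1-Ba and RT1-Bb those of the other, and Cd74 encodes the invariant chain that guides both to the endosome. Ciita is the coactivator that class II transcription depends on, and it docks on RFX and NF-Y proteins at the X and Y boxes of class II promoters without binding the DNA itself. Class I molecules, found on nearly all nucleated cells, need beta-2-microglobulin (B2m) as their light chain and peptides carried into the endoplasmic reticulum by the transporter made of Tap1 and Tap2, and interferon gamma raises both pathways.

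Promoter sequences are shown for the 4 class II chain genes and the 3 class I members so that the short motifs known from these pathways can be seen in place. They come from the RefSeq promoter table of the GRCr8 assembly, which covers 250 bases before to 50 after each start and held 8 of the 9 members, all but Ciita. Capitals mark the X1 box end (ACNGATG) and the Y box (GATTGG), searched on both strands. A Y box on the strand opposite to the one shown reads as its reverse complement, CCAATC.
RT1-Da: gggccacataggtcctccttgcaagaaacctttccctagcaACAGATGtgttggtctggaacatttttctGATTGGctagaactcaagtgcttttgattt
RT1-Db1: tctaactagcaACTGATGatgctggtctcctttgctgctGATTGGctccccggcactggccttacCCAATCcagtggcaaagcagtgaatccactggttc
RT1-Ba: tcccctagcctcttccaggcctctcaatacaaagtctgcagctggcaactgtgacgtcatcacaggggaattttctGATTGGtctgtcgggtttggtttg
RT1-Bb: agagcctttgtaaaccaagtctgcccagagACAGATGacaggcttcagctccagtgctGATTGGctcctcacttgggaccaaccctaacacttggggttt
These 100-base stretches run from 120 to 21 bases before the start, at chr20:4515295-4515394 (plus strand), chr20:4560183-4560282 (minus strand), chr20:4576937-4577036 (plus strand) and chr20:4604139-4604238 (minus strand). RT1-Db1 holds a further Y box on the strand opposite to the one shown. In RT1-Da, RT1-Db1 and RT1-Bb the X1 box end was followed by a Y box on the same strand with 22, 21 and 21 bases between them. RT1-Ba had the Y box, at 44 bases before the start, and no match to these X1 letters in the window. Cd74 matched neither motif in its window. The Y box letters were in 14.8% and the X1 letters in 10.2% of the 33469 promoters of the table. Both in this order, 15 to 25 bases apart, were in 15 promoters (0.0448%), a window chosen after the positions in these genes were seen. Besides the 3 members, these 15 included the class II genes RT1-Db2, RT1-DMa and RT1-DOb.

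For the class I members, capitals mark an interferon regulatory factor element (GAAANNGAAA, either strand) and, in B2m, also a Y box.
B2m: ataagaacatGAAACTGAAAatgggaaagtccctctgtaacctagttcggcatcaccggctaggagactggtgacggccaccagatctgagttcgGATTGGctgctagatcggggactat
Tap1: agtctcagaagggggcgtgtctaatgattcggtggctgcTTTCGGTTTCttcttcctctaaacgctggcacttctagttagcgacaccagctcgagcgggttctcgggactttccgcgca
Tap2: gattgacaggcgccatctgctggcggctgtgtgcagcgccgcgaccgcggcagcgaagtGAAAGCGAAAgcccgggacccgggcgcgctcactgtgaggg
The B2m and Tap1 stretches hold 120 bases, from 160 to 41 before the start, at chr3:129549170-129549289 (plus strand) and chr20:4668584-4668703 (minus strand). The Tap2 stretch holds the last 100 bases before the start, at chr20:4652297-4652396 (minus strand), and in Tap1 the element lies on the strand opposite to the one shown. This element was in 3.92% of all promoters, in the 3 class I members, and in no class II member of the table, Cd74 included. The gamma-activated site written as TTCNNNGAA was in 8.87% of promoters and in no member. By RefSeq's order of genes, RT1-Db1, RT1-Ba and RT1-Bb are direct neighbours, and Tap2, Psmb8, Tap1 and Psmb9 stand side by side in the same complex.

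The arrays as a whole had medians between 6.96 and 7.05, and the paired arrays of a group correlated at 0.947 to 0.996 over all probe sets. The tissue labels were borne out by Atp4a, the gastric proton pump (12.78 to 13.55 in the stomach, at most 9.41 elsewhere), and by Car1, a colonic carbonic anhydrase (11.99 to 13.44 in the colon, at most 6.69 elsewhere). Fabp2, an enterocyte fatty acid carrier, lay at 13.29 to 13.52 in the jejunum, above all stomach and colon arrays. Those ranged widely, from 8.88 to 12.40 in the stomach and from 9.78 to 12.06 in the colon, and the cause was not tested. Pancreatic acinar transcripts stood out on 3 arrays, stomach 72 h replicate 1, colon 6 h replicate 1 and colon 72 h replicate 2, with list medians of 13.2, 9.20 and 12.1. The 3′ GAPDH signal exceeded the 5′ one by more than 0.5 on jejunum 24 h replicate 1 (0.82) and stomach 24 h replicate 1 (0.56), a sign of shorter RNA. Nothing in the labels ties equal replicate numbers to the same rats.

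In untreated rats the jejunum carried the most class II message of the 3 tissues. All 5 class II members were higher in jejunum than in stomach by 1.95 to 2.48 log2, that is 3.87-fold to 5.56-fold, and higher in jejunum than in colon by 2.72-fold to 4.24-fold. The class I members B2m, Tap1 and Tap2 were higher in both jejunum and colon than in stomach. In all, 18 of 27 member differences between untreated tissues passed an adjusted p of 0.05 in 1 limma fit of the 30 arrays. With 2 arrays against 2, an exact permutation test of a single gene cannot go below 0.333, so all tests rest on the spread that limma pools over groups and probe sets.

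The invariant chain Cd74 read 9.95 and 10.45 on the untreated stomach arrays, 12.36 and 12.47 on the jejunal ones and 10.28 and 10.81 on the colonic ones. The jejunal arrays lay above all others, and stomach and colon overlapped. The jejunum exceeded the stomach by 2.21 ± 0.30 (standard error here and below) with an adjusted p of 8.8e-06, and colon minus jejunum was −1.87 ± 0.30 (adjusted p = 7.2e-05). RT1-Da, the alpha chain, gave 9.82 and 10.53 in stomach, 12.15 and 12.35 in jejunum and 10.27 and 10.74 in colon. Here too only the jejunal arrays stood apart, and the jejunum minus stomach difference was 2.07 ± 0.42 (limma adjusted p = 7.4e-04).

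RT1-Bb, the beta chain of the other class II molecule, had the widest gap of the class II members. It read 8.40 and 8.86 in stomach, 11.08 and 11.13 in jejunum and 8.74 and 9.38 in colon, and its jejunum minus stomach difference was 2.48 ± 0.31 (limma adjusted p = 4.5e-06). RT1-Ba differed by 2.03 ± 0.39 and RT1-Db1 by 1.95 ± 0.36 between these tissues. RT1-Db1 shares much of its sequence with its neighbour RT1-Db2, so its signal may hold both and is uncertain to that extent. No class II difference between colon and stomach passed: the 5 ran from −0.05 (RT1-Ba) to 0.51 (RT1-Db1) with adjusted p from 0.295 to 0.931.

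B2m, the class I light chain, read 12.25 and 12.77 in stomach, 13.64 and 13.68 in jejunum and 13.39 and 13.43 in colon. It was higher than in stomach by 1.15 ± 0.18 in jejunum (limma adjusted p = 5.8e-05) and by 0.90 ± 0.18 in colon (adjusted p = 9.3e-04). This probe set ranks at the 99.9th percentile of probe set means. Its stomach arrays lay below all jejunal and colonic ones, and the dimmer B2m probe set gave wider differences, 1.76 ± 0.20 and 1.25 ± 0.20. Tap2, the second transporter subunit, read 7.10 and 6.96 in stomach, 9.0 and 9.03 in jejunum and 8.05 and 8.52 in colon. Its 3 tissues were fully separate, with 1.98 ± 0.18 for jejunum minus stomach (adjusted p = 6.1e-08) and 1.25 ± 0.18 for colon minus stomach (adjusted p = 3.5e-05). Tap1, the first subunit, was higher than in stomach by 1.44 ± 0.23 in jejunum and 1.08 ± 0.23 in colon. Its untreated colon arrays lay far apart, at 7.84 and 8.90, and the colon minus jejunum difference of −0.37 became 0.17 without replicate 1 and −0.90 (adjusted p = 0.00181) without replicate 2.

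Ciita was the exception among the members. It read 7.29 and 7.25 in stomach, 7.62 and 7.38 in jejunum and 7.01 and 7.18 in colon, and jejunum minus stomach was 0.23 ± 0.12 (limma adjusted p = 0.155). The other Ciita probe set did pass, at 0.72 ± 0.18 (adjusted p = 0.00532). Colon minus jejunum was −0.41 ± 0.12 on the brightest probe set (adjusted p = 0.0109), a call lost without jejunum 0 h replicate 1 (adjusted p = 0.138) or colon 0 h replicate 1 (0.103). Tap2's colon minus jejunum difference of −0.73 (adjusted p = 0.00345) was −0.49 and lost its call (adjusted p = 0.0788) without colon 0 h replicate 1.

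Read against all probe sets, 8 of 9 members were called higher (adjusted p under 0.05) in jejunum than in stomach, where 14.9% of probe sets were. In colon over stomach 3 of 9 members were called higher against 15.1%, and 7 of 9 were called lower in colon than in jejunum against 25.8%. The median member difference between jejunum and stomach was 1.98, and the median over the 14217 genes was −0.0057.

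**Figure D1:**
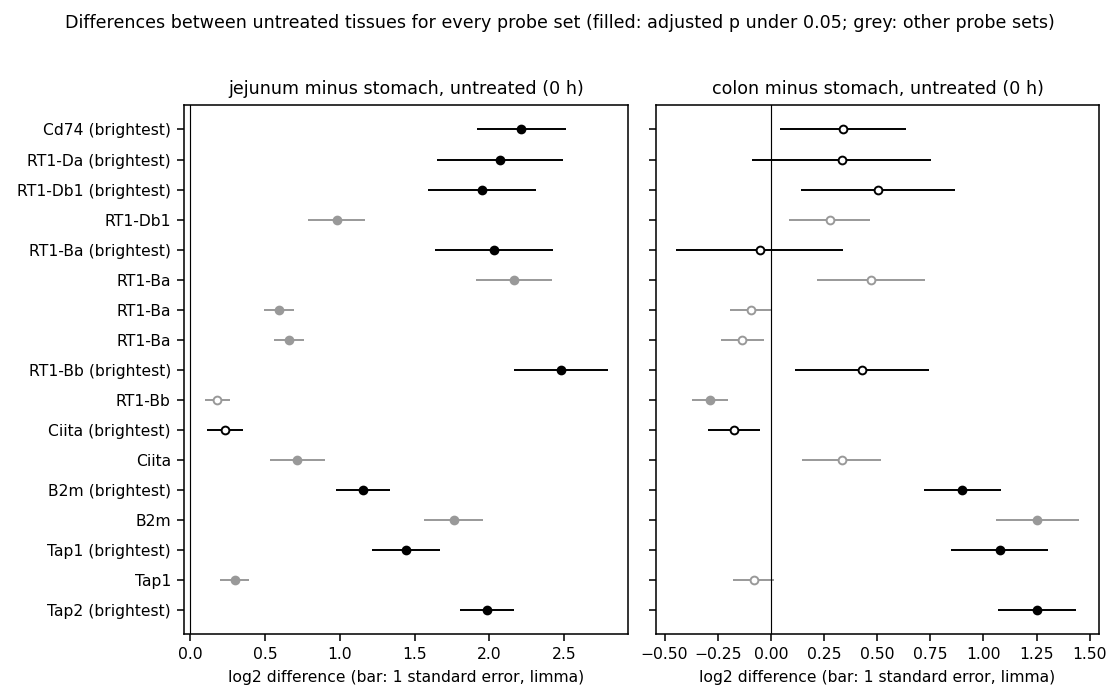
Log2 differences between untreated tissues (x axis, points with 1 standard error from limma) for each of the 17 member probe sets; black marks the brightest probe set of a gene, grey its others, and filled points passed an adjusted p of 0.05. The brightest class II probe sets stand near 2 for jejunum minus stomach and between −0.05 and 0.51, all open, for colon minus stomach, while the brightest B2m, Tap1 and Tap2 probe sets lie above 0 in both panels; the dim RT1-Bb (0.18) and Tap1 (0.30) probe sets and 2 of the RT1-Ba ones (0.66 and 0.59) give smaller jejunum minus stomach differences.

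Of 21 class I pathway genes measured out of 31 listed, 11 were called higher and 1 lower in jejunum than in stomach. The immunoproteasome subunits Psmb8 and Psmb9, which cut proteins into class I peptides and lie beside Tap1 and Tap2, differed by 3.80 ± 0.27 and 3.81 ± 0.29, or from means of 7.20 and 7.78 in stomach to 10.99 and 11.59 in jejunum. RT1-CE12, a class I heavy chain gene with near-identical relatives whose signals the array may not separate, differed by 2.48 ± 0.16, and its relatives RT1-CE10 and RT1-CE16 by 2.01 ± 0.18 and 0.86 ± 0.10. Psmb10, the third immunoproteasome subunit, differed by 2.38 ± 0.28. Of 16 class II pathway genes measured out of 21 listed, 7 were called higher and 3 lower in jejunum. The higher ones included RT1-DMb, a chain of the molecule that loads peptide onto class II (1.31 ± 0.22), cathepsin S, which trims the invariant chain (Ctss, 2.90 ± 0.23), the thiol reductase Ifi30 (1.76 ± 0.17) and the RFX subunit Rfxank (0.50 ± 0.09). The proteases cathepsin L and H were lower (Ctsl −2.53 ± 0.25, Ctsh −0.72 ± 0.16). Median differences were 0.75 over the class I list and 0.33 over the class II list.

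Between colon and stomach, 9 class I pathway genes were called higher and 2 lower, and 3 class II pathway genes were called higher and 1 lower. RT1-DMb was the class II pathway gene called lower, at −0.81 ± 0.22. Of 15 interferon gamma signalling genes measured out of 17, 6 were called higher and 1 lower in jejunum than in stomach. In colon against stomach 10 were called higher and 2 lower. Irf8, a transcription factor of myeloid and lymphoid cells, exceeded the stomach by 2.75 ± 0.19 in jejunum and 2.30 ± 0.19 in colon.

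Markers of other cells also differed between untreated tissues. The epithelial list mean was 10.63 in stomach, 12.01 in jejunum and 12.27 in colon. Smooth muscle genes were lower in jejunum than in stomach for 10 of 10 (7 called, median −1.28), with list means of 11.18 and 11.65 on the stomach arrays and 10.07 and 10.28 on the jejunal ones. Dendritic markers were higher for 7 of 9 (4 called higher, 1 lower), B cell markers for 7 of 8 (3 called), T cell markers for 10 of 12 (4 called), pan-leukocyte markers for 6 of 8 (2 called) and macrophage markers for 4 of 11 (1 called higher, 2 lower). The medians of these 5 lists ran from −0.31 (macrophage) to 0.45 (pan-leukocyte). In whole-wall RNA, fewer cells of a type and less RNA per cell cannot be told apart, and the part of cell makeup in the member differences was not tested.

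After irinotecan the jejunum kept the highest class II group means of the 3 tissues at all 4 times. None of the 108 member differences from 0 h (9 genes, 4 times, 3 tissues) passed the adjusted threshold in limma, and 8 had an unadjusted p under 0.05, with 0 in stomach, 3 in jejunum and 5 in colon. The differences reached from −0.62 (RT1-Da at 1 h) to 0.29 (Ciita at 24 h) in stomach, from −0.88 (RT1-Db1 at 6 h) to 0.80 (Tap2 at 24 h) in jejunum, and from −0.53 (Tap1 at 1 h) to 1.03 (RT1-Da at 72 h) in colon. A difference that misses the threshold at this number of arrays is not shown to be absent. The 4 times of a tissue share their 0 h arrays.

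The shares of all probe sets called set the scale for these counts. In stomach 0.0161%, 0.0322%, 0.0161% and 0.00644% of probe sets passed at 1, 6, 24 and 72 h. In jejunum the shares were 0.0354%, 3.49%, 0.409% and 23.9%, and in colon 0%, 1.19%, 1.14% and 1.32%. At 72 h in the jejunum 0 of 9 members passed against 23.9% of all probe sets, and the lowest member adjusted p was 0.130, for Tap2.

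**Figure D2:**
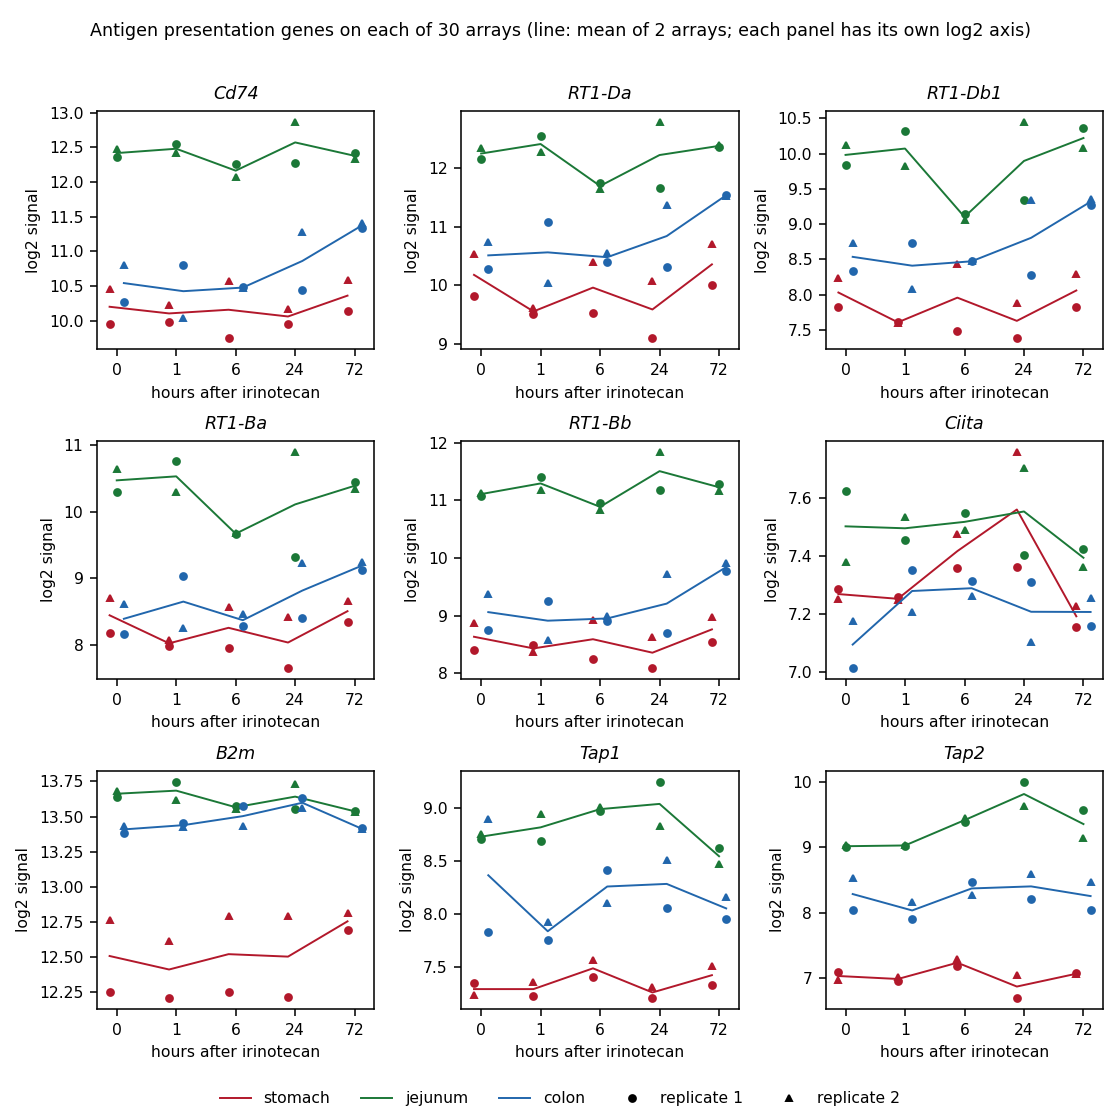
Log2 signal (y axis, its own range in each panel) of the brightest probe set of each member against hours after irinotecan (x axis, evenly spaced) in stomach, jejunum and colon; circles and triangles are the 2 arrays of a group and lines join their means. The jejunum has the highest class II group means at all 5 times; the class II arrays at 24 h in jejunum and colon lie far apart, and those of the colon at 72 h lie close together and above 0 h.

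At 6 h in the jejunum the class II members read lower and the transporter genes Tap1 and Tap2 higher than at 0 h, with no overlap between arrays and no call. RT1-Db1 read 9.84 and 10.12 at 0 h and 9.15 and 9.06 at 6 h, a difference of −0.88 ± 0.31 (limma adjusted p = 0.157). RT1-Ba read 10.30 and 10.65 at 0 h and 9.66 and 9.68 at 6 h, and RT1-Da 12.15 and 12.35 against 11.75 and 11.64. All 5 class II members were lower with both 6 h arrays below both 0 h arrays, by −0.80 for RT1-Ba, −0.55 for RT1-Da, −0.25 for Cd74 and −0.22 for RT1-Bb. Such separation downward was found for 33.3% of all probe sets, and none of the 5 passed. Tap2 instead read 9.38 and 9.45 at 6 h against 9.0 and 9.03 at 0 h, and Tap1 8.98 and 9.01 against 8.71 and 8.75. Their differences were 0.40 ± 0.15 and 0.26 ± 0.14 (adjusted p = 0.193 and 0.338), with separation upward in 27.3% of all probe sets.

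Whether these 6 h differences passed depended on the jejunal arrays of another time. With one or the other replicate of jejunum 24 h left out, which disagreed widely, the same 6 h differences had smaller pooled errors, and RT1-Db1 (−0.88 ± 0.15, limma adjusted p = 0.00442), RT1-Ba (−0.80 ± 0.15, adjusted p = 0.00545), RT1-Da (−0.55 ± 0.11, adjusted p = 0.00711) and Tap2 (0.40 ± 0.12, adjusted p = 0.0477) passed. Cd74, RT1-Bb and Tap1 did not pass there. All 4 RT1-Ba probe sets and both RT1-Db1 and both RT1-Bb ones had lower 6 h than 0 h arrays, with differences of −0.49, −0.29 and −0.20 for the other RT1-Ba sets, −0.22 for RT1-Db1 and −0.12 for RT1-Bb. The second, dim Tap1 probe set went the other way, at −0.15 ± 0.12.

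Leukocyte markers were lower in the same jejunal arrays at 6 h. All 8 pan-leukocyte markers were lower (median −0.46), with list means of 7.55 and 7.69 at 0 h and 7.05 and 7.17 at 6 h, and Cd53, a leukocyte tetraspanin, fell by 1.01 ± 0.22 (limma adjusted p = 0.0444). All 12 T cell and all 8 B cell markers and 8 of 9 dendritic markers were lower, and 3 of 11 macrophage markers were higher, with medians of −0.15, −0.21, −0.18 and −0.32 and no further call. Dendritic list means were 7.06 and 7.01 at 0 h and 6.77 and 6.87 at 6 h, and macrophage ones 7.86 and 8.01 against 7.35 and 7.56. RMA signals have no 0 by which a marker could be called absent, and the part of these cells in the class II values was not tested. Of the interferon gamma signalling genes 4 of 15 were called higher at that time. They included the chemokines Cxcl10 (1.69 ± 0.32, adjusted p = 0.0254) and Cxcl11 (1.50 ± 0.10, adjusted p = 0.0016). The others were the receptor chain Ifngr1 (0.76 ± 0.12, adjusted p = 0.0156) and Irf9, a partner of STAT proteins (0.51 ± 0.08, adjusted p = 0.0114). In the class II pathway list 1 of 16 genes passed, the NF-Y subunit Nfyb, which rose by 0.48 ± 0.08 (adjusted p = 0.0168), and in the class I list 0 of 21 did.

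At 24 h in the jejunum Tap2 came closest to the threshold of all 108 differences. It read 10.00 and 9.63 against 9.0 and 9.03 at 0 h, both above, a difference of 0.80 ± 0.15 (limma adjusted p = 0.0670). It passed without replicate 2 of that time (0.99, adjusted p = 0.00177) and not without replicate 1 (0.61, adjusted p = 0.0523). Tap1 read 9.25 and 8.83 against 8.71 and 8.75 at 0 h, 0.31 ± 0.14 higher. At 72 h Tap2 read 9.57 and 9.14, 0.34 above 0 h, which passed only when one or the other 24 h array was left out (adjusted p = 0.0433).

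Most class II members had no settled place at 24 h in the jejunum, where the arrays lay further apart than the means of 24 h and 0 h. Only RT1-Bb, at 11.17 and 11.84, had both arrays above both 0 h ones (11.08 and 11.13), with no call. Replicate 2 exceeded replicate 1 by 1.58 for RT1-Ba (9.32 and 10.90), 1.13 for RT1-Da (11.66 and 12.79), 1.11 for RT1-Db1, 0.67 for RT1-Bb and 0.59 for Cd74, whereas the same difference was −0.42 for Tap1 and −0.37 for Tap2. Without replicate 2 RT1-Ba (−1.15), RT1-Da (−0.59) and RT1-Db1 (−0.64) were below 0 h and Tap1 (0.52) above it, all with adjusted p under the threshold. Without replicate 1 RT1-Bb was above 0 h (0.73, adjusted p = 0.00966). Replicate 1 is the array with the large GAPDH gap, and its smooth muscle list mean was 11.02 against 10.20 on replicate 2, its macrophage mean 7.52 against 8.19 and its dendritic mean 6.71 against 7.05. The part of RNA quality and of tissue makeup in this gap was not tested.

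At 72 h the jejunal class II members did not pass. Cd74 read 12.42 and 12.34 against 12.36 and 12.47 at 0 h, RT1-Da 12.36 and 12.40 against 12.15 and 12.35, and the 5 differences ran from −0.08 to 0.24. In the class II pathway list 4 of 16 were called higher and 2 lower, where 23.9% of all probe sets passed in either direction. Cathepsin L rose by 1.99 ± 0.24 (limma adjusted p = 0.00129), the endosomal protease Lgmn by 0.87 ± 0.15, cathepsin H by 0.67 ± 0.14 and Nfyb by 0.32 ± 0.08. Cathepsin S fell by 0.40 ± 0.08 and the RFX subunit Rfxank by 0.34 ± 0.10. In the class I list Nlrc5, a coactivator of class I genes, fell by 0.26 ± 0.08 (adjusted p = 0.0429) and no other gene passed. Of the 15 interferon gamma signalling genes 5 were called higher and 1 lower. The higher ones were Gbp2, a guanylate-binding protein, at 0.87 ± 0.22, Cxcl11 at 0.71 ± 0.10 and Cxcl9, another T cell chemokine, at 0.63 ± 0.16. Jak2 at 0.39 ± 0.11 and Jak1 at 0.37 ± 0.09 were the others. Ifng itself was called lower, by 0.37 ± 0.11. Its means of 5.81 at 0 h and 5.43 at 72 h lay below the lowest array median of 6.96, so its detection is uncertain.

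For 2 members a dimmer probe set passed in the jejunum at 72 h where the brightest did not. The dimmer B2m probe set fell by 0.31 ± 0.09 (limma adjusted p = 0.0446) where the brightest gave −0.13 ± 0.09 (adjusted p = 0.308). A pair of dimmer RT1-Ba probe sets fell by 0.43 ± 0.10 and 0.42 ± 0.09 (adjusted p = 0.0167 and 0.0129) where the brightest gave −0.08 ± 0.40. With no call, the probe sets of RT1-Bb (0.12 on the brightest, −0.17 on the dim one) and Ciita (−0.11 and 0.12) differed in sign. Macrophage markers were higher in 10 of 11 at that time, with a median of 1.07 and 4 called higher and 1 lower, and list means of 8.81 and 8.68 against 7.86 and 8.01 at 0 h. Cd163, a scavenger receptor of tissue macrophages, rose by 1.19 ± 0.12 and the mannose receptor Mrc1 by 1.21 ± 0.13. Smooth muscle markers were higher for 10 of 10 (3 called, median 0.61) and B cell markers lower for 7 of 8 (3 called, median −0.29). Their part in the member values was not tested.

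In the colon at 72 h all 5 class II members read higher than at 0 h, by 1.72-fold to 2.04-fold, with no call. RT1-Da read 11.54 and 11.53 against 10.27 and 10.74 at 0 h, Cd74 11.34 and 11.41 against 10.28 and 10.81, and RT1-Bb 9.78 and 9.90 against 8.74 and 9.38. RT1-Ba read 9.13 and 9.25 against 8.17 and 8.61, and RT1-Db1 9.27 and 9.36 against 8.34 and 8.73. For all 5 both treated arrays lay above both 0 h arrays, as was the case for 22.1% of all probe sets. The differences were 1.03 ± 0.35 for RT1-Da, 0.83 ± 0.29 for Cd74, 0.80 ± 0.29 for RT1-Ba, 0.78 ± 0.30 for RT1-Db1 and 0.78 ± 0.32 for RT1-Bb, with limma adjusted p from 0.175 to 0.242, so none passed. Unadjusted, all 5 were under 0.05, at 0.0154 to 0.0331.

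Of the class I members B2m differed by 0.0047 ± 0.098, Tap2 by −0.03 ± 0.20 and Tap1 by −0.31 ± 0.28, and the class II coactivator Ciita differed by 0.11 ± 0.11, with no call. The second RT1-Ba probe set followed the brightest (0.75 ± 0.26) and so, at a smaller size, did the other RT1-Db1 one (0.38 ± 0.18), but the other 2 RT1-Ba probe sets (−0.077 and −0.14) and the dim RT1-Bb one (−0.051) did not.

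Macrophage markers were higher on the same colon arrays for 10 of 11, with a median of 1.22, list means of 7.79 and 7.93 at 0 h and 8.98 and 9.07 at 72 h, and 1 call, Cd163 (1.85 ± 0.30, limma adjusted p = 0.0211). Dendritic markers were higher for 7 of 9 (median 0.08), of which Clec10a, a lectin of macrophages and dendritic cells, rose by 1.55 ± 0.32 (adjusted p = 0.0480). Pan-leukocyte markers were higher for 8 of 8 (median 0.81), B cell markers for 6 of 8 (median 0.13) and T cell markers for 10 of 12 (median 0.25), with no call. Their list means on replicates 1 and 2 of 72 h were 7.64 and 8.25 (pan-leukocyte), 6.76 and 7.42 (B cell) and 6.59 and 7.01 (T cell). At 0 h they were 7.06 and 7.33, 6.63 and 7.07, and 6.54 and 6.60. On replicate 1 of 72 h the B and T cell means thus lay within the range of the 0 h arrays. The part of these cells in the class II values was not tested. Colon 72 h replicate 2 carried pancreatic transcripts, and without it the differences were 1.03 for RT1-Da, 0.79 for Cd74, 0.74 for RT1-Ba, 0.74 for RT1-Db1 and 0.72 for RT1-Bb. In the class II pathway list cathepsin L alone passed, rising by 1.21 ± 0.20 (adjusted p = 0.0225), with a median of 0.13 over its 16 genes.

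**Figure D3:**
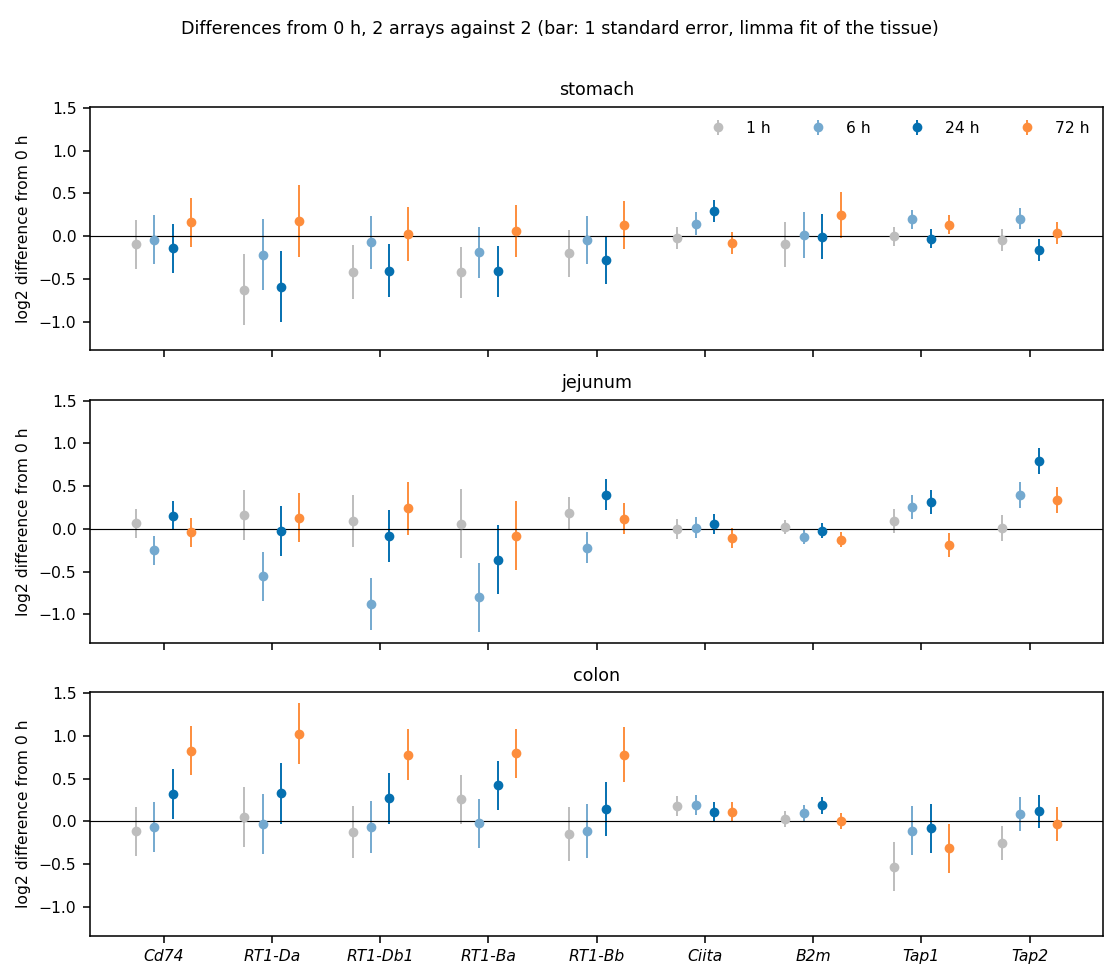
Log2 difference from 0 h (y axis, point and 1 standard error from limma) of each member (x axis) at 1, 6, 24 and 72 h in the 3 tissues. None of the 108 differences passed; the class II genes lie below 0 at 6 h in jejunum, down to −0.88 for RT1-Db1, and above 0 at 72 h in colon, up to 1.03 for RT1-Da, while B2m and Ciita stay near 0 there.

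In stomach all 5 class II members were lower at 1, 6 and 24 h and higher at 72 h, by −0.62 to 0.18, and the lowest adjusted p of any member was 0.599. RT1-Da, for one, read 9.82 and 10.53 at 0 h, 9.50 and 9.60 at 1 h, 9.52 and 10.40 at 6 h, 9.09 and 10.08 at 24 h and 10.01 and 10.70 at 72 h, so its arrays overlapped those of 0 h at 6, 24 and 72 h and lay below them at 1 h. Stomach 72 h replicate 1 is the array with the most pancreatic transcripts. Squamous epithelium list means on the 2 stomach arrays were 7.00 and 9.33 at 0 h and 7.94 and 11.25 at 72 h. At 24 h the epithelial list means there were 9.86 and 10.78 and the smooth muscle ones 12.05 and 11.13. The part of such differences in tissue makeup in the stomach values was not tested. B2m in stomach read 12.25 and 12.77 at 0 h and 12.69 and 12.82 at 72 h. In the colon at 24 h RT1-Da read 10.31 and 11.37 and Cd74 10.44 and 11.28, overlapping the 0 h arrays of both, and RT1-CE10, a class I gene outside the 9, rose there by 0.65 ± 0.12 (limma adjusted p = 0.0388).

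Between 24 and 72 h 1 of 27 member differences passed: Tap1 in jejunum was lower at 72 h (8.62 and 8.47 against 9.25 and 8.83) by −0.49 ± 0.14 (limma adjusted p = 0.0487). In that comparison 12.9% of all probe sets passed in jejunum, 6.73% in colon and 0.00322% in stomach. The call was lost without jejunum 24 h replicate 1 (−0.29, adjusted p = 0.129) and without each of the 0, 1, 6 and 72 h jejunal arrays left out singly (adjusted p = 0.0549 to 0.204), and it held only without jejunum 24 h replicate 2 (−0.70, adjusted p = 0.00132). Without jejunum 24 h replicate 1 Cd74 (−0.49) and RT1-Bb (−0.61) passed instead, and without jejunum 24 h replicate 2 RT1-Ba (1.07), RT1-Da (0.72) and RT1-Db1 (0.88) did, in the opposite direction, beside Tap2 (−0.65). Without colon 24 h replicate 2 RT1-Da (1.23), RT1-Bb (1.14) and RT1-Db1 (1.04) passed in colon. The class I heavy chain genes RT1-CE12 and RT1-CE5 were lower at 72 than at 24 h in jejunum, by −0.63 ± 0.14 and −0.48 ± 0.11 (adjusted p = 0.0204 and 0.0198), RT1-CE12 also in colon, by −0.87 ± 0.18. Of the 21 class I pathway genes, 2 were called lower and 0 higher in jejunum, and 1 lower and 1 higher in colon. The dimmer B2m probe set was lower in jejunum and colon, by −0.49 ± 0.09 and −0.65 ± 0.14 (adjusted p = 0.0114 and 0.0259), against −0.10 ± 0.09 and −0.19 ± 0.10 on the brightest.

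Whether a member's response differed between tissues was tested directly, and 0 of 36 F tests (9 genes, 4 times) passed in limma. The shares over all probe sets were 0.00322%, 0.251%, 0.229% and 2.28% at 1, 6, 24 and 72 h. The lowest adjusted p was 0.191, for Tap2 at 24 h, which was also the 1 test with an unadjusted p under 0.05. The next lowest was 0.375, for Cd74 at 72 h, so the higher class II values of the colon at 72 h were not shown to differ from the response of the other tissues.

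Ordered over all 15 groups, Cd74 had all 5 jejunal groups on top (means 12.16 to 12.57), then the 5 colonic ones (10.43 to 11.37) and the 5 stomach ones (10.06 to 10.36). Colon 72 h stood apart from the groups next to it on both sides, and jejunum 6 h from jejunum 72 h, while the other neighbours in that order overlapped. Tap2 had the same order of tissues, from 9.81 ± 0.27 (SD, n = 2) at 24 h in jejunum to 6.87 ± 0.25 at 24 h in stomach. B2m differed in that colon 24 h (13.60) ranked among the jejunal groups. For Ciita the tissues were mixed on the brightest probe set, where the highest group was stomach 24 h, at 7.56 ± 0.28 on arrays of 7.36 and 7.76. On its other probe set the 5 jejunal groups were on top, with means of 7.29 to 7.72. There the colon reached at most 6.98, and stomach 24 h stood at 6.58. In each of the 9 orders, between 1 and 5 of the 14 neighbouring pairs did not overlap.

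The class II genes also varied together between arrays of one group, where no condition differs. Over the 15 groups, the difference between replicate 2 and replicate 1 correlated at 0.809 to 0.945 (Pearson, median 0.929) among the 10 pairs of class II members, and at −0.154 to 0.510 between class II and other members. Each point is 1 pair of arrays and all genes share those arrays, so this is a description. The class II mean gap correlated at 0.898 with that of the macrophage list, 0.866 with the dendritic list and 0.757 with the pan-leukocyte list, against 0.206 for T cell, −0.194 for B cell, 0.290 for epithelial and −0.490 for smooth muscle markers. The widest gaps were those of jejunum 24 h (1.02), colon 24 h (0.96), stomach 6 h (0.79) and colon 1 h (−0.78).

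**Figure D4:**
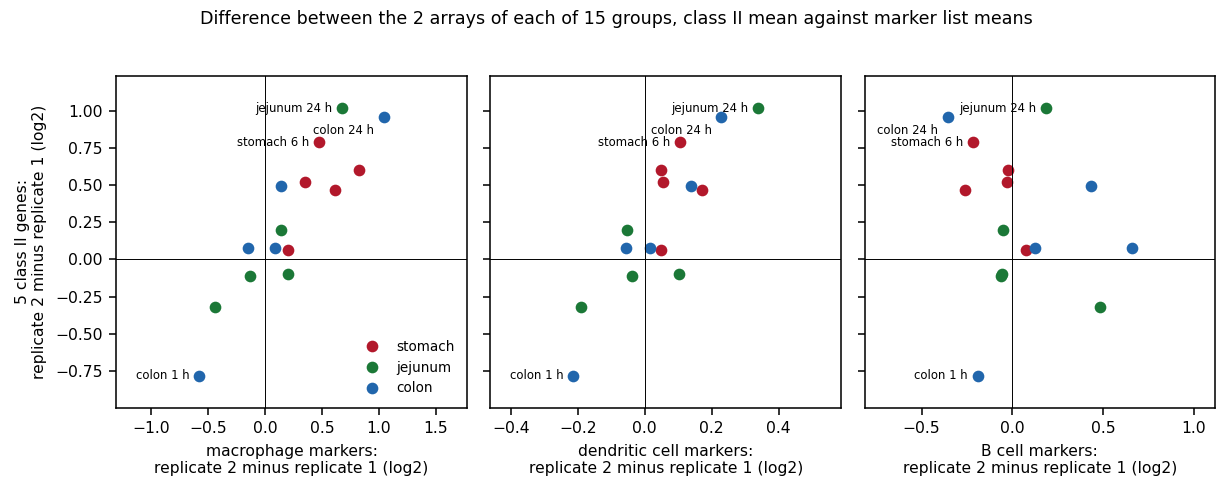
Replicate 2 minus replicate 1 of the mean log2 signal of the 5 class II genes (y axis) against that of the macrophage, dendritic and B cell marker lists (x axes) in the 15 groups, 1 point a group, coloured by tissue. The points rise together for macrophage (r = 0.898) and dendritic markers (r = 0.866) and not for B cell markers (r = −0.194).

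That shared spread is large for this array. The pooled standard deviation of the class II members lay between percentiles 94.1 and 97.8 of all probe sets in stomach, 89.2 and 99.7 in jejunum and 98.4 and 99.2 in colon, and RT1-Ba in jejunum was the widest, at 0.53 against a median of 0.10 over all probe sets. On the brightest B2m probe set it was 0.07 in jejunum, 0.05 in colon and 0.33 in stomach. That probe set lies near the top of the signal range and gave smaller differences than the dimmer one, whose standard error in colon was also larger (0.14 against 0.098), so the small spread is that of 1 probe set. A class II difference of a given size thus has a larger standard error than the same difference in most other probe sets.

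By the 15 group means, each centred on its tissue, the genes outside the 9 members most like Cd74, among 9809 compared, were Matn2, a matrix protein (Pearson 0.959), Cd36, a fatty acid and scavenger receptor (0.931), Lmo2, a transcription cofactor of blood and vessel cells (0.913), Adgrl4, an endothelial receptor (0.910), and the defensin RatNP-3b (0.893). Among the members, the likeness to Cd74 was 0.959 for RT1-Bb, 0.873 for RT1-Da, 0.804 for RT1-Db1 and 0.758 for RT1-Ba, against 0.244 for B2m, 0.161 for Tap2, 0.0146 for Tap1 and −0.206 for Ciita. Tap1 was most like Sike1 (0.916), Irf9 (0.865), Rnf19a (0.862), Parp6 (0.847) and Parp9 (0.847), and its likeness to Tap2 was 0.628. B2m was most like Adtrp (0.928), Ctss (0.919), Klk8 (0.910), Azgp1 (0.887) and Slco1a4 (0.884), of which Ctss is itself in the class II pathway list. Against 0 h these 5 genes differed by 0.81 to 1.54 at 72 h in stomach and by −0.20 to 0.16 at 72 h in colon. Stomach 72 h is a group with an array that carried pancreatic transcripts. These rankings rest on 15 points that share arrays, and the highest of many correlations is bound to be high.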

How the data were processed

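RNA of 3 tissues was measured at 5 times on 30 Affymetrix rat arrays, 2 a group. The authors deposited log2 signals made with RMA, per the submitters' processing notes, its version and use over all arrays at once not given in the sources used here. Sample titles gave the tissue, time and replicate. The 57 controls among 31099 probe sets were dropped. Of the rest 20826 carried 1 symbol, 436 several and 9780 none, and all 9 members were matched to RefSeq by gene identifier.

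A limma model (version 3.58.1, R 4.3.3) was fitted to each tissue with its 5 times. Untreated tissues and tissue differences in response were taken from 1 fit of all 30 arrays, which treats tissues of the same rats as independent. Tests are two-sided, with Benjamini-Hochberg adjustment across all 31042 probe sets. The fit was also run on simulated data with independent noise. Those data held no deviations shared by the genes of an array, such as those seen here, so the run cannot speak to them. Nothing says how rats were assigned to pools, so p-values measure the spread between pools, and 2 arrays a group limit the precision. The named genes are the members, up to 6 genes of a pathway list past the threshold in a comparison, and the 5 genes most like Cd74, B2m and Tap1. The members and lists were chosen with earlier results of these data known. Alternatives were quantile normalization, dropping dim probe sets, trend and robust variances, a replicate block, 1 fit of all arrays, other probe sets, and leaving out single arrays, those with pancreatic transcripts (list median over 2 above 0 h) or those with a GAPDH gap over 0.5.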

Additional observations from a re-analysis of the deposited data

How the results depend on the processing

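The counts for stomach and colon against 0 h and for tissue differences in response were 0 under each alternative run, and the untreated tissue count of 18 ranged from 16 to 19 with single arrays left out. In jejunum, calls above 0 h numbered 3 without the arrays with a large GAPDH gap and 0 to 4 with single arrays left out, and calls below 0 h numbered 3, and 0 to 6, with 1 for the next brightest probe set of each gene. The 72 h against 24 h count of 1 was 2 under quantile normalization, without the GAPDH gap arrays, for the mean of all probe sets and for the next brightest, 0 with trend and robust variances, in 1 fit of all arrays and with the replicate block, and 0 to 5 with single arrays left out. Equal replicate numbers were not taken to pair the samples: over 15 pairs of groups of the same time the deviations correlated at −0.215 to 0.503, only 5 of them over 0.1. The 3 tissue pairs at 24 h were among these 5 (0.319, 0.358 and 0.503), and whether those pools held the same rats is not known. The replicate block changed no other count.

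For single genes, 1001 of 1023 untreated tissue values and 334 of 376 time values kept their direction and side of the threshold. Many of these values left out an array outside the groups compared. There the difference could not change, only its standard error and adjusted p, so these tallies do not measure how firm a direction is. Reversals concerned differences that had not passed, except Tap1 in colon over stomach, which was −0.080 on its dim probe set. For colon minus stomach, Ciita was 0.079 for the mean of its probe sets and 0.33 on the other one, RT1-Ba was 0.048 for the mean, 0.47 on another probe set and −0.32 to 0.21 with single arrays left out (0.17 without colon 0 h replicate 1), RT1-Bb was −0.28 on its dim probe set, which passed there, and RT1-Da −0.023 to 0.69 with single arrays left out. Tap1 was −0.90 to 0.17 for colon minus jejunum with single arrays left out, and its dim probe set gave −0.15 at 6 h and −0.11 at 24 h in jejunum. In colon at 72 h other probe sets gave −0.14 and −0.077 for RT1-Ba and −0.051 for RT1-Bb, and B2m in stomach at 72 h was −0.012 to 0.51 with single arrays left out. The causes were not tested.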
